A study of Rattus norvegicus with 12 samples.

Results

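The effect of mean stretch was examined in beating rat heart muscle held at high cyclic shortening, by setting 3 muscles labelled high stretch high shortening against 3 labelled low stretch high shortening. Members were chosen by label alone, and made up 6 of the 12 muscles of the study. Each was a papillary muscle of the right ventricle, a small column of heart muscle that anchors the tricuspid valve, and each came from a different adult male LBNF1 rat. It was paced at 1 Hz for 12 h in warmed, oxygenated Medium 199, then frozen for RNA extraction. Mean stretch was targeted at 16% of slack length in the high stretch group and 4% in the low stretch group. Cyclic shortening was targeted at 16% in both groups, so that stretch was the one planned difference. Below, high stretch and low stretch mean these groups. Labelled age, given without a unit, was 85, 78 and 81 in high stretch animals and 84, 84 and 75 in low stretch animals. Labelled weight, also without a unit, was 297, 279 and 283 in high stretch animals and 279, 296 and 267 in low stretch animals. All muscles were cultured, and no uncultured muscle is among the samples, so both groups share dissection and culture. For each muscle, 100 ng of total RNA was labelled and read on an Affymetrix expression array that reads each transcript with 1 or more probe sets placed near its 3' end.

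Mean stretch is the length around which a heart muscle works, set in the body by the filling of the ventricle, while cyclic shortening is what it does at each beat. Heart muscle cells sense stretch at the Z-disc, along titin, at the costameres and integrins that tie the sarcomere to the matrix, and through channels opened by membrane tension. Responses known from loaded hearts include natriuretic peptides, fetal isoforms of contractile proteins, immediate early transcription factors and matrix proteins.

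The 6 arrays resembled each other closely. Pearson's r of log2 intensity, taken across probe sets (not replicates of one another), was 0.988 to 0.995 among high stretch arrays, 0.989 to 0.994 among low stretch arrays and 0.985 to 0.996 between the groups. All 6 correlated less, at 0.951 to 0.962, with the 3 arrays labelled low stretch low shortening, which stood apart from the rest of the series. The 3' to 5' index, the mean excess in log2 of the 3' over the 5' control probe sets of Gapdh and Actb, read 2.56, 3.14 and 3.10 in high stretch muscles, against 3.27, 3.18 and 3.19 in low stretch muscles. The groups did not overlap in this sign of RNA or labelling quality (exact permutation p = 0.1, the smallest that 3 against 3 allow, and 0.2 adjusted over 4 measures). Its part in the results below was not tested beyond its use as a covariate. All 16 cardiomyocyte markers with a probe set reached a mean log2 intensity of 5.64 (an intensity of 50, called bright here). Of 9 atrial markers 6 were bright, and Myl7, Sln and Mybphl were not. These lists therefore did not tell ventricle from atrium.

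No probe set passed the test between high and low stretch in limma. Of 31042 probe sets tested in limma, 0% passed an adjusted p of 0.05 in either direction, and the smallest Benjamini-Hochberg adjusted p was 0.976. Without adjustment, 1432 probe sets had p under 0.05, where chance alone gives 1552.1. Of these, 841 (2.71%) read higher and 591 (1.9%) lower at high stretch, but among bright probe sets 214 read higher and 385 lower. Differences of at least 1.5-fold among bright probe sets were 29 higher and 104 lower. At p under 0.001 there were 22, where chance gives 31.0. None of the probe sets, genes and gene lists described below passed, and what follows describes their values, not established differences.

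The differences were small and their limits tight. The middle 95% of differences, as high minus low stretch in log2, lay between -0.39 and 0.32, and the median size of a difference was 0.10, or 1.07-fold. Differences of at least 1.45-fold in either direction made up the top percentile. A 95% confidence interval reached a median of 0.30 log2, or 1.23-fold, to either side. Among the 15148 bright probe sets, the interval lay wholly within 2-fold in either direction for 14483 (95.6%), and wholly within 1.5-fold for 10636 (70.2%). For the brightest class, 416 probe sets with a mean log2 of 12 or more, it lay within 1.5-fold for 96.2%. These limits hold for each probe set singly and bound changes averaged over all cells of the muscle. They pool the spread within all 4 groups of the series, so muscles outside this comparison enter every interval.

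**Figure D1:**
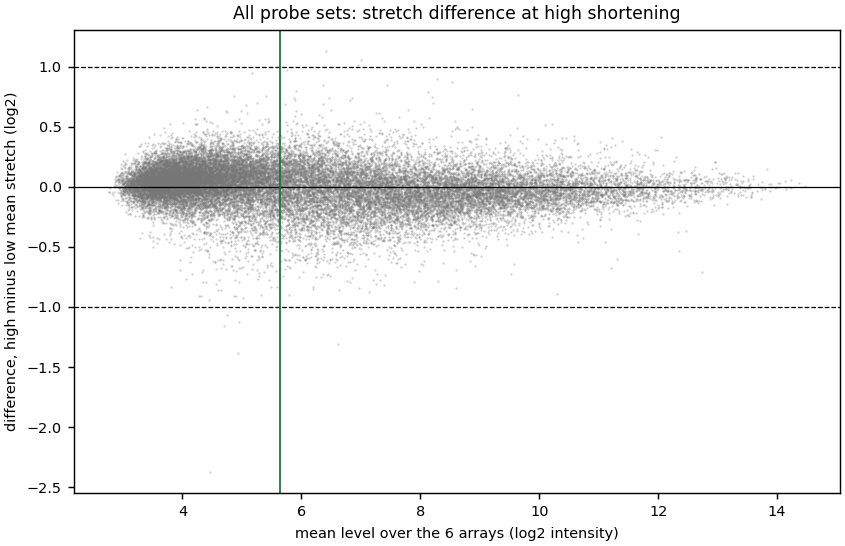
Difference between high and low mean stretch (log2, vertical axis) against the mean level over the 6 arrays (log2 intensity, horizontal axis), 1 point per probe set for 31042 probe sets. Dashed lines mark 2-fold, and the green line marks the brightness limit of 5.64; 9 probe sets lie beyond 2-fold, and the points are narrowest at the highest levels.

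A difference of 2-fold or more was measured for 9 probe sets, 3 higher and 6 lower at high stretch, named here because their values were large. Those higher were Lyve1, Reg3g, an antimicrobial lectin, and the unnamed probe set 1394559_at, all bright. Reg3g read 8.59, 6.63 and 7.38 log2 in high stretch muscles, against 6.89, 6.19 and 6.35 in low stretch muscles (difference 1.06, 95% interval -0.31 to 2.42). Its groups overlapped, since the lowest high stretch array lay under the highest low stretch array. Probe set 1394559_at read 6.67, 8.09 and 7.61 at high stretch, against 6.70, 6.04 and 6.59 at low stretch, a difference of 1.02 with an overlap as well. Of the 6 lower, only Epha3, a receptor of ephrins, was bright, at 4.92, 6.14 and 6.85 in high stretch muscles and 7.13, 6.78 and 7.93 in low stretch muscles (-1.31, interval -2.57 to -0.04). The other 5, Rfx4, Ercc6l2, Smchd1, Zik1 and 1392278_at, were dim, and their groups did not overlap. Rfx4, a transcription factor of the RFX family, gave the widest difference of all at -2.37, with 3.52, 3.01 and 3.32 in high stretch muscles against 5.11, 7.01 and 4.85 in low stretch muscles.

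Consistency was read from whether all 3 arrays of a group lay on the same side of all 3 of the other. Over all probe sets, 2117 (6.82%) had every high stretch array above every low stretch array and 1282 (4.13%) the reverse. The split depended on brightness. Among bright probe sets 561 (3.7%) were higher at high stretch and 837 (5.53%) lower, whereas among dim ones 1556 were higher and 445 lower. The median log2 intensity of whole arrays moved with this split, at 5.57, 5.56 and 5.57 in high stretch muscles against 5.55, 5.55 and 5.55 in low stretch muscles, without overlap (exact permutation p = 0.1, adjusted 0.2). When quantile normalization was applied again, the bright split turned to 761 higher and 558 lower and the dim split to 984 and 787. The share of bright non-overlapping probe sets that were higher at high stretch thus moved to 57.7%, against 40.1% as deposited. A small shift shared by many bright genes could therefore not be given a direction.

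Among bright genes, the widest gaps between the groups on the higher side belonged to Inha, Lyve1, Lims1, Prpf4b and Vcl. Inha, the alpha subunit of inhibin, read 6.82, 6.91 and 6.73 in high stretch muscles, against 6.30, 6.09 and 6.16 in low stretch muscles (difference 0.64, interval -0.08 to 1.35). Its SD was 0.09 at high and 0.11 at low stretch, and the interval also holds the spread of the other groups. Lyve1, a hyaluronan receptor of lymphatic endothelium and resident macrophages, read 7.23, 6.58 and 7.12 at high stretch, against 5.63, 6.23 and 5.68 at low stretch (1.13, interval 0.11 to 2.15). All 3 high stretch arrays of both genes lay above all 3 low stretch arrays. A second bright Lyve1 probe set, 1382732_at, gave 0.59 (SE 0.35). In whole muscle, more cells of a type and more RNA per cell cannot be told apart. Macrophage and endothelial marker lists are given below, but no list of lymphatic markers was read.

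Adhesion genes were among these, but their probe sets disagreed. Lims1, the focal adhesion adaptor PINCH1, read 8.40, 8.76 and 8.54 in high stretch muscles, against 8.14, 8.02 and 7.45 in low stretch muscles (0.70, interval 0.23 to 1.17). Its brighter probe set 1373072_at, at a mean of 12.8, gave 0.05 (SE 0.12). Vcl, vinculin of the costamere, read 12.50, 12.17 and 12.11 at high stretch and 11.88, 11.87 and 11.78 at low stretch (0.42, interval 0.05 to 0.78), but 0.07 and -0.18 at its other bright probe sets. For Prpf4b, a kinase of pre-mRNA splicing, the named probe set gave 0.48 (interval 0.04 to 0.92), and its 3 other bright probe sets gave -0.14, -0.25 and -0.02. Of the 39 probe sets named for a small p, a large difference or a wide gap, 16 genes had other bright probe sets, 22 in all. Of these, 12 had the sign of the named one, 10 had the opposite sign, and 11 lay inside its interval. Fgl2, a fibrinogen-like prothrombinase, was one where they matched in sign: the named probe set gave 0.64 (interval 0.20 to 1.08) and the other bright ones 0.41 and 0.52.

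**Figure D2:**
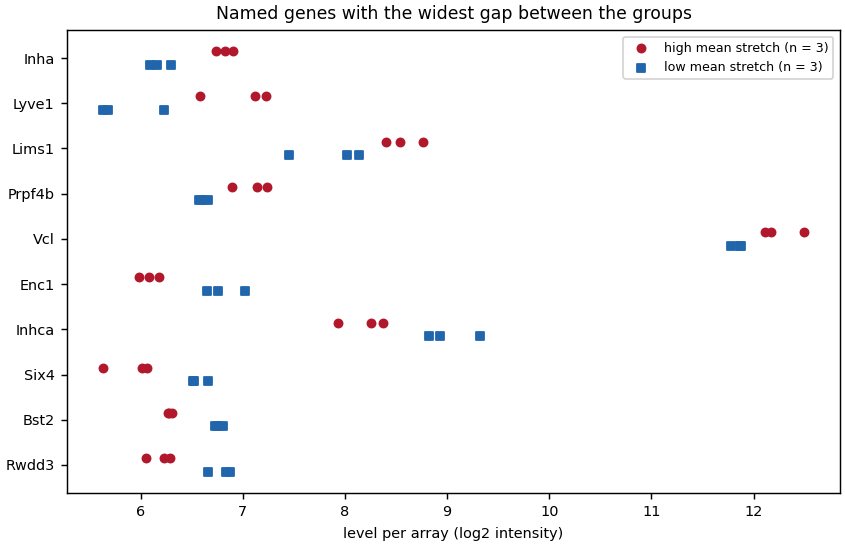
Level of the 10 named genes with the widest gap between the groups (log2 intensity per array, horizontal axis). Circles are the 3 high mean stretch arrays and squares the 3 low mean stretch arrays; Inha to Vcl have all circles to the right, and Enc1 to Rwdd3 have all circles to the left.

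On the lower side the widest gaps were those of Enc1, Inhca, Six4, Bst2 and Rwdd3. Enc1, an actin-associated Kelch protein, read 5.98, 6.08 and 6.18 in high stretch muscles, against 6.65, 7.02 and 6.76 in low stretch muscles (-0.73, interval -1.59 to 0.13). Here too the interval holds the spread of the other groups, with an SD of 0.10 at high and 0.19 at low stretch. Its brighter probe set 1388666_at gave 0.09 (SE 0.16). Inhca, an inhibitor of carbonic anhydrase, read 8.37, 8.26 and 7.93 at high stretch, against 9.32, 8.82 and 8.93 at low stretch (-0.84, interval -1.63 to -0.05). Six4, a homeobox transcription factor, differed by -0.66 (interval -1.21 to -0.12), and Rwdd3, an enhancer of protein sumoylation, by -0.60 (interval -0.96 to -0.24). In each of the 5 genes the highest high stretch array lay under the lowest low stretch array.

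Among bright genes with the smallest unadjusted p, those higher at high stretch began with Fa2h, a fatty acid hydroxylase, at 6.01, 6.27 and 5.93 in high stretch muscles against 5.50, 5.71 and 5.56 in low stretch muscles (0.48, interval 0.24 to 0.73). Beside it stood Atg2b, a lipid transfer protein of autophagy (0.52, but -0.09 at its brighter probe set 1393218_at), Pcgf2 of the Polycomb group (0.40), Ggt1 of glutathione metabolism (0.33), the deubiquitinase Usp46 (0.57, but -0.18 at its other bright probe set), Vwa3a (0.40), Stxbp6 (0.43) and Cntfr, the receptor of ciliary neurotrophic factor (0.51). Brighter probe sets gave 0.16 for Stxbp6 (SE 0.21) and 0.24 for Cntfr (SE 0.10). Those lower began with Mcu, the pore of the mitochondrial calcium uniporter, at 6.46, 6.43 and 6.35 in high stretch muscles against 6.78, 6.75 and 6.98 in low stretch muscles (-0.43, interval -0.64 to -0.21). Aasdhppt, which activates carrier proteins with phosphopantetheine, read 10.39, 10.46 and 10.43 at high stretch and 10.74, 10.92 and 11.01 at low stretch (-0.46, interval -0.71 to -0.21). The groups did not overlap in either gene, and dim probe sets of Mcu gave 0.25 and -0.07. The other lower genes were Hlf (-0.84), Swt1 (-0.61, but -0.05 at its brighter probe set), Mks1 of the ciliary base (-0.54), Arhgap28 (-0.69), Rfc1 of DNA replication (-0.66, but 0.00 at its brighter probe set), histone Hist4h4 (-0.54), neurolysin Nln (-0.60) and Rwdd3. At dim probe sets, Mks1 gave 0.26 and -0.22, Arhgap28 0.11, -0.01 and -0.14, and Rwdd3 0.03.

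Many differences depended on 1 muscle. Of 123 probe sets chosen by rank or list with a difference of at least 0.2, 58 moved by over 1.5 times, up or down, when 1 array or another was left out. Of these, 25 moved with high stretch replicate 1, the array of lowest 3' to 5' index, and 21 with low stretch replicate 3. Some grew: Hspa1a went from -0.68 to -1.05 without low stretch replicate 3, and Nr1d1 from 0.48 to 0.74 without low stretch replicate 1. Ryr3, a calcium release channel, read 6.41, 6.07 and 6.27 in high stretch muscles, against 5.92, 5.85 and 4.07 in low stretch muscles, and its difference of 0.97 became 0.36 without low stretch replicate 3. The same muscle set Apc2, whose 0.80 became 0.31. Abcd3, a peroxisomal transporter, read 11.13, 9.46 and 9.49 in high stretch muscles, against 9.37, 9.21 and 9.20 in low stretch muscles, and its 0.76 became 0.21 without high stretch replicate 1. Map3k20, a stress-activated kinase, gave 0.57, with 0.02 and -0.24 at its other bright probe sets, and 0.29 without low stretch replicate 3. On the lower side were Ddx60, an antiviral helicase (-0.90, interval -2.33 to 0.53), Nxt2 of mRNA export (-0.81), the kinase Rps6ka5 (-0.80, and -0.46 at a second bright probe set), Mllt3 (-0.78), Trim34 (-0.76) and Wdr33 of polyadenylation (-0.75, but 0.06 at its brighter probe set 1389993_at). Leaving out low stretch replicate 3 gave -0.37 for Rps6ka5 and -0.48 for Trim34, and leaving out high stretch replicate 1 gave -0.42 for Mllt3. Other bright probe sets of Mllt3 gave -0.43 and -0.11.

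The genes usually read as markers of cardiac stretch were followed whatever their values. Nppa, atrial natriuretic peptide, read 6.92, 6.80 and 6.88 in high stretch muscles, against 6.72, 6.65 and 6.56 in low stretch muscles (difference 0.22, interval -0.05 to 0.50). Its groups did not overlap. Nppb, B-type natriuretic peptide, read 12.35, 12.24 and 13.00 at high stretch and 12.89, 12.28 and 12.27 at low stretch (0.06, interval -0.45 to 0.56), with full overlap. Of 13 genes of the natriuretic and fetal program with a probe set, 0 passed in either direction, 8 had differences above 0, and the median was 0.06, against 0.002 over all 14217 genes. Nppa and Nppc, C-type natriuretic peptide, which is dim (0.17), were higher without overlap, and the natriuretic peptide receptor Npr2 was lower without overlap (-0.33, or -0.18 without high stretch replicate 1). Those without overlap made up 15.4% of the list higher and 7.69% lower. For single representative probe sets of all genes these shares were 851 genes (5.99%) higher and 627 (4.41%) lower. Non-overlapping genes of each list below are to be set beside the shares of all genes. All genes include dim ones, and over bright probe sets the shares were 3.7% higher and 5.53% lower.

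The contractile isoforms of the fetal program stayed close or varied among muscles. Acta1, skeletal alpha actin, read 10.94, 10.24 and 11.17 in high stretch muscles, against 10.43, 10.30 and 10.44 in low stretch muscles (0.39, interval -0.27 to 1.06). High stretch replicate 2 lay below all low stretch muscles. Myh7, the slow myosin heavy chain, read 13.40, 12.30 and 12.80 at high stretch and 12.65, 12.73 and 13.03 at low stretch (0.03, interval -0.90 to 0.97), so that its limits were among the widest of the contractile genes followed. Myh6, the fast heavy chain, was bounded far more tightly, at -0.01 (interval -0.19 to 0.17).

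Sensors of stretch at the Z-disc had differences of -0.39 to 0.19 between the groups. Of 22 such genes 0 passed, and 13 lay above 0 with a median of 0.05. For 17 the whole interval lay within 1.5-fold, and for 20 within 2-fold. Ankrd1, a titin-bound ankyrin repeat protein, read 13.75, 13.84 and 13.77 in high stretch muscles, against 13.80, 13.86 and 13.78 in low stretch muscles (-0.02, interval -0.20 to 0.16). Csrp3, the muscle LIM protein, gave 0.12 (interval -0.11 to 0.34), Xirp1 0.08 (interval -0.26 to 0.41) and Fhl1 0.06 (interval -0.18 to 0.30). The groups did not overlap for Trim54, a titin-binding ligase (-0.13), and Sqstm1, the autophagy adaptor p62 (-0.19). Both were lower, 9.09% of the list against 4.41% of all genes, and 0% were higher, against 5.99%. Of the 22 genes 21 were bright, and over bright probe sets the shares were 5.53% lower and 3.7% higher. Sqstm1 read 11.74, 11.87 and 11.80 at high stretch and 11.98, 12.01 and 11.98 at low stretch.

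Integrins, focal adhesions and costameres (29 genes, median 0.05) and mechanically gated or stretch-linked channels (17 genes, median 0.09) had no gene past the test. In these lists each gene was read by the probe set brightest over all 12 arrays, which for Vcl was the one at 0.07. The focal adhesion gene Parva (0.13) was higher without overlap, and Itga6 and Itga7, laminin receptors, gave 0.37 and 0.26 with overlap. These became 0.11 without low stretch replicate 3 for Itga6 and 0.13 without low stretch replicate 2 for Itga7. Piezo1, a channel opened by membrane tension, gave 0.02 (interval -0.39 to 0.43). Piezo2 gave 0.32 and the potassium channel Kcnk2 0.19, both without overlap. Piezo2 and Kcnk2 made up 11.8% of the channel list, against 5.99% of all genes. Piezo2 lay at a dim 3.85, 3.83 and 4.04 in high stretch muscles against 3.63, 3.49 and 3.63 in low stretch muscles. Of 22 YAP and SRF targets, with a median of 0.02, smooth muscle actin Acta2 was higher without overlap (0.29), at 6.18, 5.90 and 5.90 in high stretch muscles against 5.72, 5.76 and 5.64 in low stretch muscles. Ccn2, connective tissue growth factor, was among the least determined: 10.79, 9.58 and 9.42 at high stretch against 10.03, 10.10 and 8.40 at low stretch (0.42, interval -1.30 to 2.14). Its difference was -0.13 without low stretch replicate 3, and -0.01 without high stretch replicate 1.

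**Figure D3:**
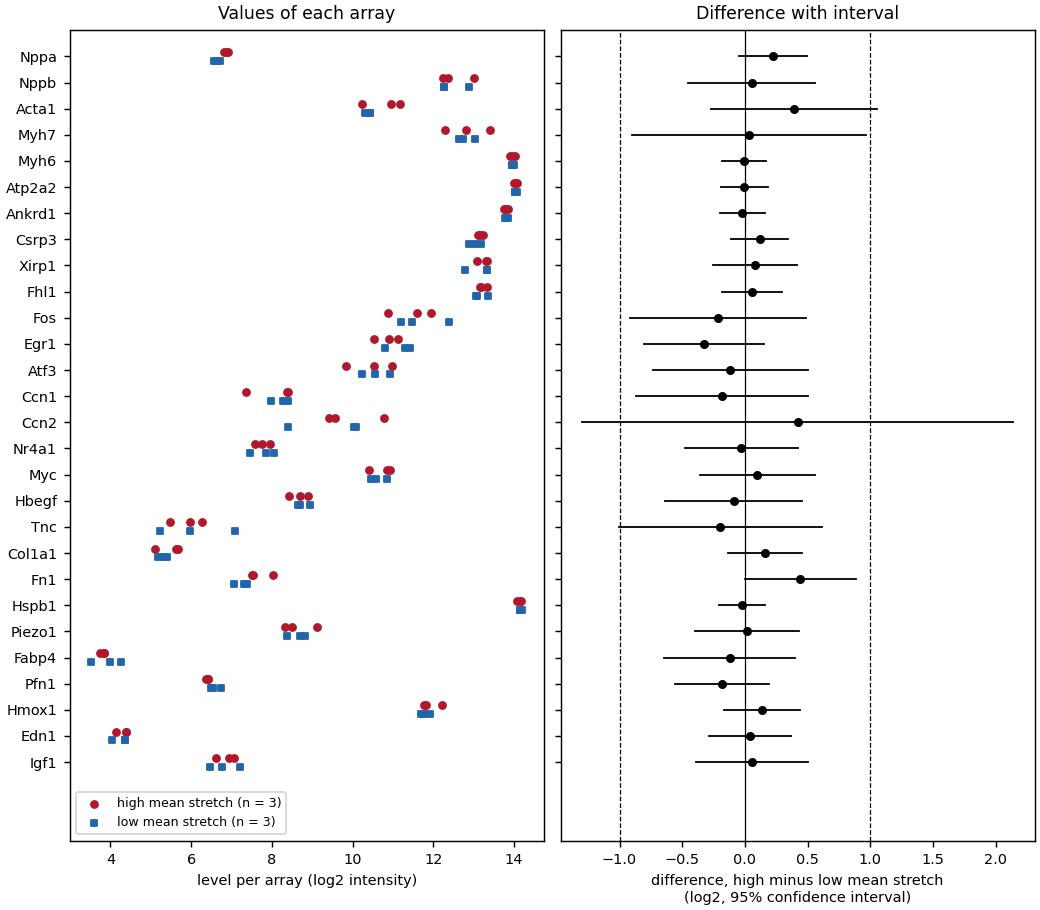
Left, level of each of 28 followed genes on every array (log2 intensity; circles high mean stretch, squares low mean stretch, 3 arrays each). Right, difference of high minus low mean stretch with its 95% confidence interval (log2), dashed lines at 2-fold; the interval of every gene includes 0, that of Fn1 reaching down to -0.00 and that of Ccn2 running from -1.30 to 2.14.

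Immediate early genes, the fast transcriptional answer to many stimuli, were spread widely at 12 h. Of 30 with a probe set, 16 lay above 0 and 14 below, with a median of 0.03. Fos read 10.87, 11.59 and 11.96 in high stretch muscles, against 12.38, 11.20 and 11.47 in low stretch muscles (-0.21, interval -0.92 to 0.49). Egr1 gave -0.33 (interval -0.80 to 0.15), Atf3 -0.12, Nr4a1 -0.03, Myc 0.10 and Junb 0.30. The phosphatase Dusp4, which is dim (0.22), was higher without overlap. For 29 of the 30 genes the interval stayed within 2-fold.

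Of 24 sarcomere genes, 21 had an interval within 1.5-fold and the median was 0.04. Of 33 genes of calcium cycling and excitation, 22 did. Cmya5, myospryn (0.21), was higher and Myom2 of the M-band (-0.08) lower without overlap, and Myl4, an atrial light chain, gave -0.40 with overlap, and -0.09 without low stretch replicate 3. The sarcomere share without overlap was 4.17% in each direction, against 5.99% higher and 4.41% lower over all genes. Among 33 genes of calcium cycling and excitation (median 0.04), Atp2a2, the sarcoplasmic calcium pump, gave 0.00 (interval -0.19 to 0.18). Slc8a1, the sodium-calcium exchanger (0.12), and the pacemaker channel Hcn4 (0.29) were higher and the connexin Gja5 (-0.42) lower without overlap. Hcn4 gave 0.14 without high stretch replicate 1. These genes made up 6.06% higher and 3.03% lower, near the 5.99% and 4.41% of all genes. The store sensor Stim1 gave -0.37 (interval -0.73 to -0.02) with overlap. Cytoskeletal Pfn1 was lower at high stretch without overlap, at 6.42, 6.42 and 6.37 in high stretch muscles against 6.54, 6.74 and 6.49 in low stretch muscles (-0.19, interval -0.56 to 0.19).

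Of 47 matrix genes, 33 lay above 0 at high stretch, the median was 0.09, and 3 (6.38%) were higher and 0 lower without overlap, a share near that of all genes. The 3 were Fn1, fibronectin, Col8a1, a short-chain collagen (0.35), and Spp1, osteopontin (0.17), which is dim. Fn1 read 7.54, 7.50 and 8.04 in high stretch muscles, against 7.39, 7.30 and 7.07 in low stretch muscles (0.44, interval -0.00 to 0.88). Col6a2 gave 0.55 with overlap, Col1a1 0.16 and tenascin Tnc -0.19. Thbs4, thrombospondin 4, read 9.49, 7.20 and 9.01 at high stretch and 7.24, 7.66 and 8.55 at low stretch (0.75, interval -0.66 to 2.16), with high stretch replicate 2 the lowest of all 6.

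Growth factors and paracrine signals (39 genes) had a median of -0.01. Id3, an inhibitor of bHLH factors, was lower without overlap but dim, at 4.48, 4.42 and 4.40 in high stretch muscles against 4.97, 4.67 and 5.33 in low stretch muscles (-0.56, interval -0.88 to -0.24). Angiotensinogen Agt (0.26) and the apelin receptor Aplnr (0.29), both dim, were higher without overlap. The angiotensin receptor Agtr1a gave -0.56 with overlap and endothelin Edn1 0.04, both dim, and the bright Hbegf -0.09 and Igf1 0.06.

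Among all lists, the interferon response and antigen presentation had the lowest median. Of 48 genes with a probe set, 40 of them bright, 34 lay below 0 at high stretch and 14 above, with a median of -0.18. Without overlap, 5 (10.4%) were lower and 0 higher, against 4.41% and 5.99% of all genes, and 0 passed the test. Over bright probe sets those shares were 5.53% lower and 3.7% higher. The 5 were Bst2, Ifih1, Lgals3bp, Psmb8 and Cxcl11. Bst2, the antiviral membrane tether tetherin, read 6.28, 6.30 and 6.26 in high stretch muscles, against 6.76, 6.72 and 6.80 in low stretch muscles (-0.48, interval -0.78 to -0.18). Its spread within either group was far below the gap between them. Ifih1, a sensor of viral RNA, read 3.95, 4.16 and 4.26 at high stretch and 4.52, 4.34 and 4.95 at low stretch (-0.48, interval -0.96 to -0.00), which is dim throughout. Lgals3bp, a galectin-binding glycoprotein, read 8.37, 8.19 and 8.34 at high stretch and 9.09, 8.41 and 8.65 at low stretch (-0.42). Psmb8, an immunoproteasome subunit, gave -0.34, and the chemokine Cxcl11 -0.05 at a level above 13.

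Across the list, the muscles themselves were uneven. The median deviation of its genes from their means over the 6 arrays was -0.03, -0.25 and -0.04 in high stretch muscles, against 0.34, -0.12 and 0.09 in low stretch muscles. Low stretch replicate 2 lay below high stretch replicates 1 and 3, so the groups overlapped, and low stretch replicate 1 was the highest. Leaving out 1 array at a time moved the list's median between -0.29 and -0.06, and repeated quantile normalization gave -0.14. Mx2, an antiviral GTPase, shows it: it read 4.56, 3.99 and 4.70 in high stretch muscles, against 6.45, 4.55 and 4.98 in low stretch muscles (-0.91, interval -2.24 to 0.42). Leukocyte markers are given beside it, and their part in these values was not tested. Summed over 18 macrophage and monocyte markers, 11 of them bright, the level was 12.09 to 12.29 log2 at high stretch against 12.03 to 12.21 at low stretch. For 16 lymphocyte and granulocyte markers, 14 of them dim, it was 8.77 to 8.80 at high stretch against 8.60 to 8.77 at low stretch.

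**Figure D4:**
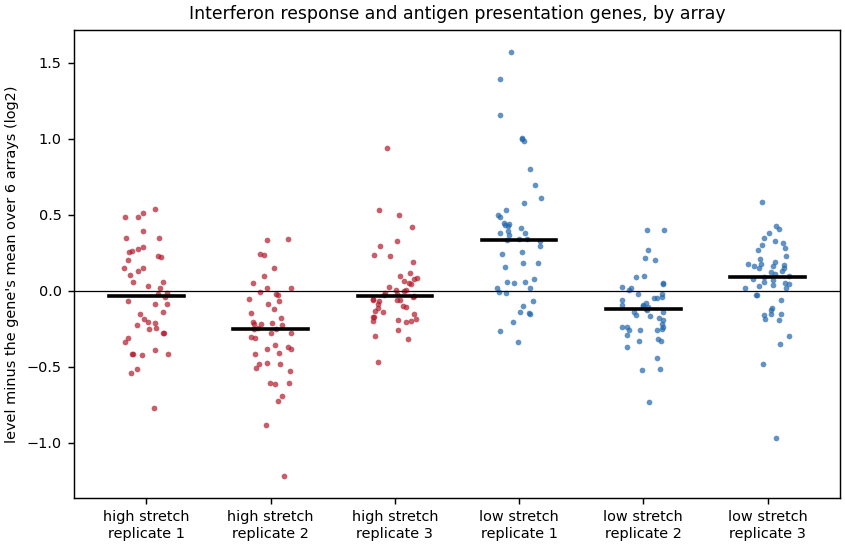
Deviation of 48 interferon response and antigen presentation genes from their own mean over 6 arrays (log2, vertical axis), by array, 1 point per gene, with the array's median as a bar. The bars of the high mean stretch arrays lie at -0.03, -0.25 and -0.04 and those of the low mean stretch arrays at 0.34, -0.12 and 0.09.

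Promoters of interferon-induced genes often carry the response element that interferon regulatory and STAT factors bind. In RefSeq promoters of the rat build GRCr8, 250 bases before to 50 after the gene start, the letters GAAA, any 2 bases and GAAA again were searched on both strands. They were found in 1312 of 33469 promoters (3.92%), and in 22 of the 41 interferon list genes matched by symbol. The median difference was -0.21 for those 22 and -0.15 for the other 19 matched genes. Shown are the promoters of the 4 non-overlapping list genes that hold the element, on the strand of the gene from 5′ to 3′, with the element in capitals. Bst2 lies at chr16:18254918-18255217 on the minus strand and holds 2 elements that overlap, 131 and 125 bases before the start. Ifih1 lies at chr3:67683919-67684218, minus strand, Lgals3bp at chr10:104127799-104128098, minus strand, and Psmb8 at chr20:4656982-4657281, minus strand, where the element is read on the opposite strand.
Bst2: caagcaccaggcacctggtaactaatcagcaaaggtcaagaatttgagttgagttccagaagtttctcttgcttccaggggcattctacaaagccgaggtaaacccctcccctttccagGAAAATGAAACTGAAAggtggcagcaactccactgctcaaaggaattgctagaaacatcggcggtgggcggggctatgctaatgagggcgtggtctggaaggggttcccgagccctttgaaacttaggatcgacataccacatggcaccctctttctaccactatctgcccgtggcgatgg
Ifih1: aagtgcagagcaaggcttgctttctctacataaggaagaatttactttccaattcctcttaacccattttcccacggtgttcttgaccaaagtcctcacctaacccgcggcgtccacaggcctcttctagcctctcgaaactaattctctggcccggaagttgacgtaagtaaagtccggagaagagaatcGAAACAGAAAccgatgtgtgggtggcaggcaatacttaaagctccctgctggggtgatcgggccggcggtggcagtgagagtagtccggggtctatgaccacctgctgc
Lgals3bp: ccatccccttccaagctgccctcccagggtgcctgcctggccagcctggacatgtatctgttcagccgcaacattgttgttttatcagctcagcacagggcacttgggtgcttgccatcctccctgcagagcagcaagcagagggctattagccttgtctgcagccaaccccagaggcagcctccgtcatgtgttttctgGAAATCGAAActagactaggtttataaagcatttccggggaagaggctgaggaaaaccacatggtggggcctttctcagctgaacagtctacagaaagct
Psmb8: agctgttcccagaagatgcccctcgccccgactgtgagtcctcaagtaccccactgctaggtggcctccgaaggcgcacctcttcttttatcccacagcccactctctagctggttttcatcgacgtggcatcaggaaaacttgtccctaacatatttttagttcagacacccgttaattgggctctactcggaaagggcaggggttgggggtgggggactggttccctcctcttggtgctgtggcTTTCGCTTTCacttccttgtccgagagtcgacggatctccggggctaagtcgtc
These matches describe the sequence and are not measured sites of binding. The other elements searched were TGANTCA of AP-1, in 0 of 21 matched immediate early genes and 7.33% of all promoters, GAANNTTC of heat shock factor, in 14 of 27 heat shock genes and 8.59% of all, and ACGTG of hypoxia, in 17 of 35 glycolysis and hypoxia genes and 19.3% of all.

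Cytokines, chemokines and NF-kB genes (50) had a median of -0.01, which moved between -0.23 and 0.11 as single arrays were left out. Il18, a cytokine of the interleukin 1 family (0.34), was higher without overlap but dim. Cxcl12, a chemokine, gave -0.69 (interval -1.26 to -0.12) and the adhesion molecule Icam1 0.25, both with overlap. Il6 was bright in every muscle, at 12.57, 12.35 and 11.91 in high stretch muscles and 12.98, 11.91 and 13.03 in low stretch muscles (-0.36, interval -1.28 to 0.56).

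Heat shock and protein folding genes (31) had a median of -0.03. Hspa1a, the inducible chaperone HSP70, read 10.58, 11.01 and 11.00 in high stretch muscles, against 11.86, 11.98 and 10.79 in low stretch muscles (-0.68, interval -1.48 to 0.13). Low stretch replicate 3 lay below replicates 2 and 3 of the high stretch group, and without it the difference was -1.05. The small heat shock proteins Hspb6 (0.15) and Hspb7 (0.26) were higher without overlap, and Hspb1 gave -0.02. Hspb6 and Hspb7 made up 6.45% of the list, against 5.99% of all genes and 3.7% of bright probe sets.

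For the unfolded protein and amino acid response the median of 30 genes was -0.08, with 21 below 0. Herpud1, a ubiquitin-like protein of the endoplasmic reticulum, read 11.92, 12.29 and 12.20 in high stretch muscles, against 12.56, 12.43 and 12.55 in low stretch muscles (-0.38, interval -0.70 to -0.05). With the sensor Atf6 (-0.16) and the degradation adaptor Sel1l (-0.27) it made up the 3 (10%) that were lower without overlap, against 4.41% of all genes. Of the 30 genes 29 were bright, and 5.53% of bright probe sets were lower without overlap. Trib3, a pseudokinase of this response, gave -0.66 (interval -1.19 to -0.13) and Ddit4 -0.69, both with overlap.

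Oxidative stress genes (30) had a median of 0.02. Metallothionein Mt2A read 11.77, 12.26 and 12.21 in high stretch muscles, against 12.40, 12.50 and 12.95 in low stretch muscles (-0.54, interval -0.96 to -0.12), without overlap. Superoxide dismutase Sod1 (0.04) was higher without overlap, heme oxygenase Hmox1 gave 0.14, and the glutathione transferase Gsta4 -0.37 with overlap. The clock list (19 genes) had a median of 0.003. Hlf, a clock-output transcription factor, read 5.40, 6.23 and 5.72 in high stretch muscles, against 6.39, 6.37 and 7.09 in low stretch muscles (-0.84, interval -1.31 to -0.36), and its 3 dim probe sets gave 0.32, 0.04 and -0.06. Rora (-0.55, or -0.25 without high stretch replicate 1) was lower without overlap, and Nr1d1, a clock repressor, gave 0.48 with overlap. Hlf and Rora, both without overlap, made up 10.5% of the clock list lower, and 0% were higher, against 4.41% and 5.99% of all genes. Among 25 apoptosis genes (median 0.01), Apaf1 (-0.58) and Bak1 (-0.10) were lower and Casp8 (0.39) higher without overlap, though Apaf1 gave -0.30 without low stretch replicate 2 and Casp8 0.20 without low stretch replicate 3. The apoptosis shares were 8% lower and 4% higher, against 4.41% and 5.99% of all genes.

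In energy metabolism, an interval within 1.5-fold was found for 68 of 73 genes of oxidative phosphorylation, 32 of 39 of glycolysis and hypoxia and 38 of 45 of fatty acid handling. For oxidative phosphorylation 0 passed, and the median was -0.01. Ndufs1 (-0.11) was lower and Uqcr11 (0.11) higher without overlap, and Ndufb8 gave 0.27 with overlap. In glycolysis and hypoxia (39 genes, median 0.04), Hk1 (0.14) and Bnip3l (0.19) were higher and Gpi (-0.13) and P4ha2 (-0.28) lower without overlap, and adrenomedullin Adm gave 0.41 with overlap. In fatty acid handling (45 genes, median -0.03), Ucp2 (0.12) and Pnpla2 (0.21) were higher and Acadvl (-0.12) lower without overlap. Angptl4 gave -0.73 (interval -1.71 to 0.25), with overlap. For oxidative phosphorylation the share without overlap was 1.37% in each direction, against 5.99% higher and 4.41% lower over all genes. Of the 73 genes 72 were bright. Over bright probe sets the shares were 3.7% higher and 5.53% lower, and over those with a mean log2 of 12 or more 2.16% and 2.4%. For glycolysis and hypoxia the share was 5.13% in each direction, and for fatty acid handling 4.44% higher and 2.22% lower. In the atrophy and autophagy list (27 genes, median 0.04), Foxo3, a transcription factor of muscle wasting, was lower without overlap (-0.08), besides Sqstm1, and Bnip3l higher. In the cell cycle list (34 genes, 17 of them bright, median -0.03), Ccne1 (0.29) and the dim Cdkn2b (0.23) were higher without overlap. Aurka (-0.36), Mki67 (-0.20) and Pcna (-0.11) were lower without overlap. The cell cycle shares were 5.88% higher and 8.82% lower, and those of atrophy and autophagy 3.7% and 7.41%. All genes had 5.99% and 4.41%. Across the 34 lists, the median changed sign for 21 when 1 array or another was left out and kept it for 13. Repeated quantile normalization turned the sign of 2, the adipocyte and skeletal muscle lists.

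**Figure D5:**
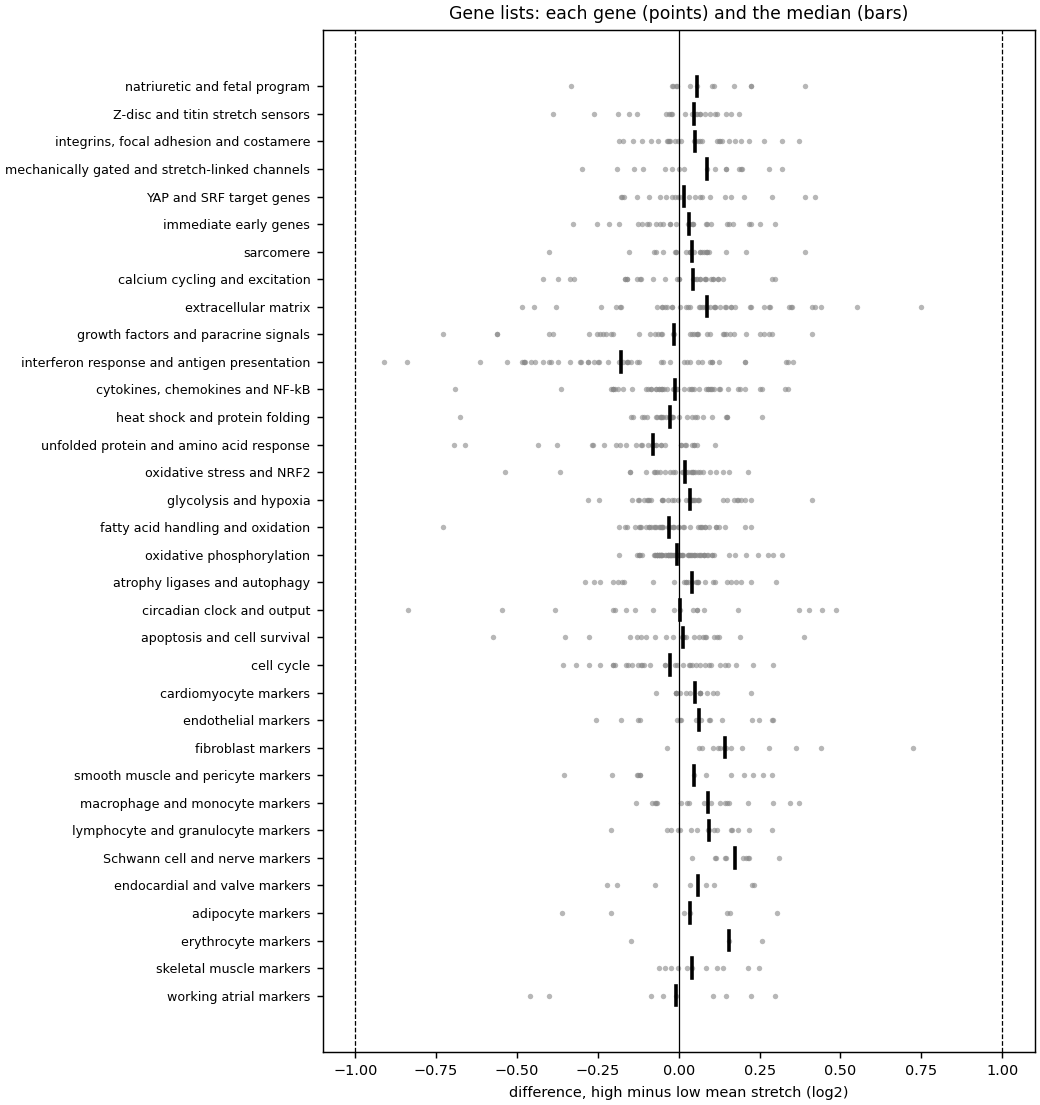
Difference of high minus low mean stretch (log2, horizontal axis) of each gene of 34 lists, 1 point per gene, with the median of the list as a bar and dashed lines at 2-fold. No gene of any list lies beyond 2-fold; the interferon list has the lowest median, at -0.18, and the Schwann cell and nerve list the highest, at 0.17.

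Markers of other cells in the muscle were compared by list. Of 14 fibroblast markers, 13 lay above 0 at high stretch (median 0.14), and Pi16, Dpt and Tcf21 (21.4%) were higher without overlap, against 5.99% of all genes. Leaving out 1 array moved that median between 0.06 and 0.23. Pi16, a marker of adventitial fibroblasts, read 4.92, 4.40 and 4.85 in high stretch muscles, against 4.31, 4.28 and 4.27 in low stretch muscles (0.44, interval 0.08 to 0.80). Dpt, dermatopontin, gave 0.36, or 0.15 without high stretch replicate 1, Mfap5 of microfibrils 0.72 with overlap, and decorin Dcn -0.03. Their summed level, carried by the brightest, was 13.63 to 13.87 log2 in high stretch muscles and 13.61 to 13.87 in low stretch muscles. Col1a1, Tcf21, Pi16 and Dpep1 were dim, a class in which more probe sets were higher than lower at high stretch as deposited.

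All 10 Schwann cell and nerve markers lay above 0 (median 0.17), from 0.04 for Cryab, which cardiomyocytes share, to 0.31 for S100b. Of these 7 were dim, none was without overlap, and the summed level, mostly Cryab, was 13.77 to 13.89 at high stretch and 13.68 to 13.89 at low stretch. Macrophage markers (18 genes, median 0.09) included Fcer1g, an Fc receptor chain, at 8.75, 8.28 and 8.27 in high stretch muscles against 8.06, 8.22 and 8.15 in low stretch muscles (0.29), without overlap, and Lyz2 (0.37) with overlap. These became 0.13 without high stretch replicate 1 for Fcer1g and 0.19 without high stretch replicate 3 for Lyz2. Endothelial markers (16 genes, median 0.06) had 11 above 0 and 5 below, and 0 without overlap. Their summed level was 11.80 to 12.08 at high stretch and 11.68 to 12.00 at low stretch. The lowest difference was that of the VEGF receptor Kdr, -0.25, or -0.07 without high stretch replicate 1, and the highest was 0.29.

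Red cell markers were read by 3 of the 8 listed genes. Alas2 (0.26) and Slc4a1 (0.16), both dim, were higher without overlap, and the bright globin Hbb gave -0.15 (interval -1.03 to 0.73). Over all genes 5.99% were higher without overlap, and over dim probe sets 9.79%. Of 7 adipocyte markers, 5 lay above 0 and 2 below (median 0.04). Only Pparg (14.3%) was lower without overlap, against 4.41% of all genes. It read 5.75, 5.50 and 5.65 in high stretch muscles, against 6.02, 6.09 and 5.88 in low stretch muscles (-0.36). Fabp4, listed with the endothelial markers, gave -0.12 at a dim level. Smooth muscle and pericyte markers (13, median 0.05) had the dim Lmod1 (-0.12) lower and Acta2, described above, higher without overlap. Endocardial and valve markers (8, median 0.06) had Nfatc1 (-0.22) lower without overlap. Of 11 skeletal muscle markers 9 were dim, and Myh1 (0.21) and the dim Ryr1 (0.25) were higher without overlap. Myh1 and Ryr1 made up 18.2% of the list, against 5.99% of all genes. Myh1 belongs to a family of near-identical myosins, and its bright signal cannot be assigned to 1 member. Of 9 atrial markers, Nr2f2, a venous and atrial factor, was lower without overlap (-0.46), and Nppa, described above, higher.

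Differences were small among the brightest genes. Brightness also depends on the probes, so their order is not an order of transcript number. Quantile normalization pulls probe sets of equal rank to the same value, and its part in these small differences was not tested. The 12 brightest were the mitochondrially encoded COX1 and COX2, tropomyosin Tpm1, the chaperones Hspb1 and Hspb6, Atp2a2, troponin Tnnt2, Myh6, the ATP synthase subunits Atp5f1c and Atp5f1b, Ankrd1 and the mitochondrial creatine kinase Ckmt2. COX1 read 14.53, 14.44 and 14.43 in high stretch muscles, against 14.43, 14.49 and 14.46 in low stretch muscles (0.01, interval -0.20 to 0.21). Tpm1 gave -0.01 (interval -0.19 to 0.16) and Tnnt2 0.03 (interval -0.14 to 0.21). The largest of the 12 was Hspb6, at 14.00, 13.80 and 13.91 in high stretch muscles and 13.72, 13.74 and 13.80 in low stretch muscles (0.15, interval -0.05 to 0.35). COX2 had the widest interval, -0.31 to 0.38. Its SD was only 0.01 in high stretch and 0.03 in low stretch muscles, and the spread of the other muscles enters the interval.

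Probe sets without a gene symbol made up 9780 of the 31042, and were dimmer, with a median level of 4.75 log2 against 6.09 for those with 1 symbol. Bright ones numbered 3303. Their median size of difference was 0.13, against 0.10 for bright probe sets with 1 symbol, with a wider median interval, 0.39 against 0.33 to either side. Groups did not overlap for 138 (4.18%) that were higher and 175 (5.3%) that were lower at high stretch, close to the shares over all bright probe sets.

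Of these, 1393252_at read 9.31, 8.47 and 9.14 in high stretch muscles, against 8.10, 8.23 and 7.97 in low stretch muscles (difference 0.88, interval 0.46 to 1.30). Its groups did not overlap, and over single arrays left out its difference ran between 0.71 and 1.13. Probe set 1396223_at was as regular, at 6.55, 6.52 and 6.51 at high stretch and 6.24, 6.10 and 5.85 at low stretch (0.46, interval 0.21 to 0.72). The others of smallest p on the higher side were 1395606_at (0.44), 1395783_at (0.39) and 1397792_at (0.34).

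On the lower side, 1394491_at read 6.52, 6.30 and 6.59 in high stretch muscles, against 6.95, 7.09 and 7.10 in low stretch muscles (-0.58, interval -0.83 to -0.32). Probe set 1386089_at read 5.56, 6.04 and 5.71 at high stretch and 6.28, 6.62 and 6.97 at low stretch (-0.85, interval -1.25 to -0.45). With them stood 1391636_at (-0.63), 1380507_at (-0.62) and 1384017_at (-0.48), none of which overlapped. The brightest unnamed probe sets were 1375651_at, 1375340_at, 1388159_at, 1379371_at and 1386852_x_at. Their differences lay between -0.04 and 0.06, and for 1375651_at the values were 14.42, 14.36 and 14.38 at high stretch and 14.32, 14.37 and 14.37 at low stretch.

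The Local Pooled Error test, which borrows the spread from probe sets of like brightness and compares medians, gave another result on the 16391 probe sets of the deposited filtered table. It called 10, of which limma called 0. Called lower at high stretch were 2310002L09Rikl, Ercc6l2, Inhba, Hspa1a, Il6, 1368247_at, which is annotated to Hspa1b and Hspa1a, and 1371245_a_at, annotated to 2 globin genes. Called higher were Thbs4, Lyve1 and 1393252_at. Only Lyve1, Ercc6l2 and 1393252_at were without overlap between the groups. Inhba, the activin beta A subunit, read 11.46, 10.09 and 9.74 in high stretch muscles, against 11.41, 11.04 and 10.05 in low stretch muscles, and its spread over muscles exceeded its difference (limma -0.40, interval -2.36 to 1.55).

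The same stretch step at low shortening was measured in the other 6 muscles. There 10528 probe sets (33.9%) passed in limma, and the difference between the steps, the interaction, passed for 6323 (20.4%). The low stretch low shortening arrays, which stood apart, enter both numbers: their 3' to 5' index averaged 1.36 ± 0.29, against 3.77 ± 0.63 in high stretch low shortening muscles (SD, n = 3 each). With the index as a covariate 1042 interactions passed. Of 189 named genes and probe sets with values here, 61 had an interaction past the test and 9 of these kept it with the index as a covariate, Vcl and Id3 among them. Vcl gave 2.28 at low shortening against 0.42 at high shortening, and Ccn1, a matrix signalling protein, -2.79 against -0.18.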

How the data were processed

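The authors deposited log2 expression values made by RMA (background correction, quantile normalization and probe set summary), per the submitters' processing notes; the software version is not given in the sources used here. The deposited tables held 31099 probe sets, and a filtered one 16391 with the same values. Depth has no meaning for arrays, and their number limits the precision. After 57 control probe sets were left out, limma 3.58.1 in R 4.3.3 was fitted (lmFit, eBayes) on 12 arrays in 4 groups of 3, without a block, and the contrast of high minus low stretch at high shortening was adjusted by Benjamini-Hochberg over 31042 probe sets. Figures were drawn with Python 3.11.15 and matplotlib 3.10.9. Gene symbols came from the platform annotation: 20826 probe sets had 1 symbol, 436 several and 9780 none. The fit was tested on simulated data.

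Bright meant a mean over the 6 arrays of at least 5.64, the log2 of 50. Named were bright probe sets with the 10 smallest p each way, the 8 largest non-overlapping differences and 5 widest gaps each way, the 12 brightest genes, unnamed probe sets by the same kinds of rank, 28 followed genes, and from each list those of smallest p. Not all of these are described in the text: Mir351, among the 10 higher, and some list genes were left out. Those without overlap, of 2-fold or more, or called by the Local Pooled Error test were named after their values were seen. Each list gene was read by its brightest probe set over 12 arrays. Members and lists were chosen with earlier results of these data known. The Local Pooled Error test was rewritten from its description. Muscles came from separate animals, so p-values measure the spread between animals and their cultures. Same-numbered muscles were checked for pairing: their residuals correlated at -0.13, -0.03 and -0.02. Alternatives covered filters, normalization, priors, weights, covariates, the replicate block and each array left out. Promoters came from RefSeq's GRCr8 table, matched by symbol.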

Additional observations from a re-analysis of the deposited data

Results flagged for a closer look

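Of 189 genes and probe sets named above, 61 had a stretch difference at high shortening that differed from the one at low shortening by limma's interaction term, with an adjusted p under 0.05. Over all probe sets 20.4% had one. Many of the names were picked for a large difference at high shortening, which is a term of the interaction, so these counts and the opposite signs are tilted by that choice and are descriptions only. The interaction is the stretch difference at high shortening minus that at low shortening, in log2, and is given in brackets. For 48 the signs at the 2 shortening levels were opposite, and for 49 the difference at low shortening was the larger in size. All rest on the low stretch low shortening arrays, whose 3' to 5' index stood apart. With the index as a covariate 9 passed, and with body weight as a covariate 23; the part of either in these values was not tested further.

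Those that passed with the index as a covariate were Fabp4 (5.48), Ndufb8 (4.50), Pfn1 (4.03), Hspb7 (2.90), Ccn1 (2.61), Id3 (2.50), Vcl (-1.86), Uqcr11 (1.45) and 1386089_at (-2.84). Pfn1 differed by -0.19 at high shortening, against -4.22 at low shortening, and Fabp4 by -0.12 against -5.60.

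Among genes chosen for a small p, a large difference or a wide gap were Fgl2 (1.62), Usp46 (-0.87), Stxbp6 (0.69), Map3k20 (-1.08), Aasdhppt (-0.87), Mks1 (-1.21), Arhgap28 (-1.88), Rwdd3 (-1.51), Six4 (-1.67), Bst2 (-0.74), Nxt2 (-1.06), Mllt3 (-2.17) and Trim34 (-1.41). Those with a difference of 2-fold or more at high shortening were Ercc6l2 (-2.70), Smchd1 (-1.53), Zik1 (-1.28) and 1392278_at (-1.30). Probe sets without 1 symbol were 1395783_at (-0.68), 1397792_at (-0.58), 1391636_at (-2.26), 1384017_at (-0.63), 1379371_at (-0.42) and 1368247_at (-1.61).

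In the stretch, contraction and matrix lists they were Parva (0.83), Itga7 (1.07), Piezo2 (0.43), Acta2 (0.72), Junb (2.10), Cmya5 (1.30), Gja5 (-1.02) and Col6a2 (2.08). In the immune and stress lists they were Lgals3bp (1.57), Icam1 (2.11), Hmox1 (0.98), Hspa1a (-1.77), Sel1l (-0.67), Trib3 (-1.21), Sod1 (0.76), Apaf1 (-1.22), Bak1 (0.66) and Foxo3 (-0.71). In the metabolic lists they were P4ha2 (-0.88), Gpi (1.35), Adm (2.75), Acadvl (0.54), Ucp2 (1.12) and Pnpla2 (1.08), and among cell type markers Dpt (1.13), Fcer1g (1.76), Pparg (-0.76), Ryr1 (0.63) and Nfatc1 (-1.37). Adm differed by 0.41 at high shortening, against -2.34 at low shortening.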

How the results depend on the processing

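In limma, 0 probe sets passed at high shortening under every alternative run, among them an adjusted p of 0.1, the unmoderated fit, array weights, a covariate of age, weight or 3' to 5' index, and the 9 arrays without the low stretch low shortening group. The smallest adjusted p over the alternatives was 0.110, without low stretch replicate 1. The Local Pooled Error test called 10. The count at an unadjusted p under 0.05, 1432 as reported, was 661 with probe sets filtered at the 40th percentile, 547 in the deposited filtered table, 651 with dim values raised to the brightness limit and 609 with 1 probe set per gene, and lower numbers tested enter the first, second and last. Leaving out 1 array gave 914 to 1916 such probe sets, with 914 without high stretch replicate 1, and 0 called. The interaction, called for 6323, was called for 2150 with weight and 1042 with the index as a covariate, and for 5427 to 6147 with 1 array left out. With replicate number as a block, 0 were called, 1470 had an unadjusted p under 0.05 and 6085 interactions were called; the samples share only a number, since same-numbered muscles did not deviate together. Repeated quantile normalization moved the share of non-overlapping probe sets that were higher at high stretch to 56.5%, against 62.3% as deposited, and among dim ones to 55.6%, against 77.8%. At an unadjusted p under 0.05 that share was 53.3%, against 58.7%. For 178 named probe sets and 34 list medians, 3376 values kept within the spread between replicates and 61 moved, 23 of these with dim values raised to the limit. For a single probe set, leaving out 1 of 3 arrays cannot shift the difference beyond that spread. Fits that change only the error leave the difference as it is. Most of these values could therefore not have moved, and their count is no sign of stability. Set against its own size, the difference of 58 of 123 probe sets moved by over 1.5 times with 1 array left out. With 3 muscles a group, differences inside the printed intervals could not be resolved, and near the background of dim probe sets less still.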
